A study of Homo sapiens with 18 samples.

Results

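The glucocorticoid receptor gene NR3C1 and 7 genes tied to it were followed through RNA sequencing of MM1S and MM1R cells. The 8 genes were picked by symbol from the 43735 genes of the deposited count table, and all 8 had enough reads to be tested. They are NR3C1, its relative NR3C2 (the mineralocorticoid receptor), and TSC22D3, FKBP5, PER1, KLF9, ZBTB16 and SGK1, which glucocorticoids are known to raise in many cell types. MM1S is a human multiple myeloma line that dies when given glucocorticoids, and MM1R is a line of the same origin that resists them. No group received a glucocorticoid. In each line, 1 group was left untreated, 1 was given 5 µM RSL3 for 3 h, and 1 was given 2 µM Fer-1 (ferrostatin-1) for 2 h before RSL3. RSL3 blocks GPX4, the enzyme that clears lipid peroxides, and Fer-1 blocks lipid peroxidation. Each of the 6 groups had 3 libraries, MM1R at passages 4, 6 and 7 and MM1S at passages 16, 22 and 23. The libraries of a group are therefore passages of 1 line, and the p-values measure the spread between those passages. Values below are given in the order of the passages.

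The glucocorticoid receptor waits in the cytoplasm in a complex with HSP90 and its co-chaperones. Once it binds a glucocorticoid it moves to the nucleus, where it binds glucocorticoid response elements and raises or represses nearby genes. In lymphoid and plasma cells this program ends in cell death, which is why glucocorticoids are used against myeloma. Among the genes it raises, TSC22D3 (also called GILZ) codes for a protein that restrains inflammatory transcription factors, and FKBP5 for a co-chaperone that lowers the receptor's own affinity for hormone. PER1 is part of the circadian clock, KLF9 is a Krüppel-like transcription factor, ZBTB16 (PLZF) is a transcriptional repressor, and SGK1 is a kinase that acts on ion channels.

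The response elements that these genes carry near their starts are shown first, since they are the feature that would link the genes to the receptor. The full palindrome (AGAACA and TGTTCT with any 3 bases between) was within 5000 bases of the main annotated start in none of the 8 genes, and in 0.139% of 18741 protein-coding genes. The shorter core (GNACA and TGTNC with any 3 bases between) was in 3 of the 8 genes and in 12.1% of all genes. A further match lay 46 bases before the start of ENST00000413996, an SGK1 transcript. Among 250-base stretches before 42215 coding-transcript starts, 0.204% held this core. Both motifs, of which the full one contains the core, were searched on both strands of hg19. Of the 4 matches, those of PER1 and NR3C2 lie before the main start and that of FKBP5 after it. They are printed 5′ to 3′ on the gene's strand, with the core in capitals, and the positions are those of the core (FKBP5 chr6:35655535-35655547, PER1 chr17:8057779-8057791, NR3C2 chr4:149364949-149364961, SGK1 chr6:134497163-134497175).
FKBP5: gtggttcaGGACAGTGTGTTCagcgtttg
PER1: agccaagaGAACATGATGTTCccaagtgc
NR3C2: gcctttggGCACAGGGTGTCCcccggtcc
SGK1: tgcggaacGGACAAAATGTTCtcagagat
The core was in no such window of NR3C1, TSC22D3, KLF9 and ZBTB16, which includes both members that RSL3 raised (KLF9 in MM1R cells) and members that it did not. The search of 5000 bases was made around the main start only, and other coding-transcript starts had the 250 bases before them searched. For TSC22D3 the main start is chrX:107019017, and a coding-transcript start at chrX:106960365 had only the short search. Response elements further from such starts were not looked for. The 250 bases before the start of ENST00000372397, a TSC22D3 transcript (chrX:106960366-106960615), and before the single KLF9 start (chr9:73029574-73029823) are shown because RSL3 raised these 2 genes, both on the minus strand. Capitals mark a FOXO motif (GTAAACA on either strand), which 2.26% of the windows before coding-transcript starts hold. The TSC22D3 window was chosen after the matches were seen, as the 1 of its 6 windows with one, and the window of its main start has none. Of all 35 windows of the members, 4 held the motif, the others being 1 of NR3C1 and 2 of ZBTB16. The 2 ZBTB16 windows overlap and hold the same site (chr11:113932811-113932817), so the windows are not independent.
TSC22D3: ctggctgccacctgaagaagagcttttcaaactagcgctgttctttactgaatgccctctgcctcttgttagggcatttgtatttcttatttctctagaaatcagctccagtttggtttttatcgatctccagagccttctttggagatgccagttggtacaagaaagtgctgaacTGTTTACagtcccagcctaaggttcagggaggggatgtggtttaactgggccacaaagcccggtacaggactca
KLF9: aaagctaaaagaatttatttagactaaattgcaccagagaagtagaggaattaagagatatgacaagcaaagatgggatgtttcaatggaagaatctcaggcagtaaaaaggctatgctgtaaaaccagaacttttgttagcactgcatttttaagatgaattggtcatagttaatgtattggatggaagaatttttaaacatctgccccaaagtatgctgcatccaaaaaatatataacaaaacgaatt
The KLF9 window held no match to the FOXO, glucocorticoid, heat shock, antioxidant or cyclic AMP elements that were searched. Such matches describe letters and not binding. The counts are per gene, so the starts that were in use could not be told apart.

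Total counts ran from 17635438 to 19368343 per library (median 18564719), so all groups had nearly the same depth. Levels are given as CPM, which are counts scaled to library depth and composition (TMM). The test was passed where FDR was under 0.05 and the log2 fold change exceeded 1 in either direction. HMOX1, a known marker of oxidative and heme stress, was at 13.5 to 25.4 CPM in untreated MM1R libraries and 237 to 1404 CPM after RSL3, while MM1S libraries went from 9.09 to 13.2 CPM to 310 to 2298 CPM. All 8 plasma cell markers were expressed (from CD38 at 41 CPM or more to XBP1 at 1108 CPM or more), while MS4A1, CD3D, LYZ and COL1A2 had at most 2 counts in any library and CD3E had 63 to 211. Of the stromal and epithelial markers, EPCAM had 6 to 29 counts and COL1A1 9 to 297. The 3 together summed to 0.94 to 2.18 CPM in untreated and 1.28 to 21.1 CPM in RSL3-treated MM1S libraries, at most 4.61 CPM in any MM1R group, and neither of the 2 tested passed. The highest sum was in the MM1S RSL3 library of passage 16. Several values below rest on this library and are also given without it. Why it stood apart was not tested. In 1 library, MM1R given Fer-1 and RSL3 at passage 6, 17 genes that mark MM1S over MM1R cells (members left out) stood at 46.1% of their MM1S level (median), against -0.667 to 2.39% in the other 8 MM1R libraries. These genes were chosen, and the scale set, on all libraries but this one, so the low values of the other 8 follow from that choice. The passage 6 library had a mean of its own in the model, which leaves 2 libraries for that MM1R group, and it is named apart wherever its value is given.

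NR3C1 (ENSG00000113580, hg19 chromosome 5, 142657496 to 142815077) was low in MM1R and high in MM1S cells under every treatment. In untreated cells the MM1R libraries held 14.4, 13.8 and 14.9 CPM and the MM1S libraries 152, 96.6 and 89.9 CPM (14.4 ± 0.526 against 113 ± 33.9, SD, n = 3). The highest MM1R library lay far below the lowest MM1S library. The log2 fold change of MM1R over MM1S was -2.97 (SE 0.44, FDR = 0.000507), where 4.78% of the 14281 tested genes passed. In bulk RNA, fewer cells that express a gene and less RNA of it per cell cannot be told apart.

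With RSL3, NR3C1 was at 22.3, 16.5 and 19.3 CPM in MM1R libraries. The MM1S libraries held 392, 102 and 97.6 CPM, and the first of these, of passage 16, stood far above the others. The RSL3 and untreated groups did not overlap in MM1R cells and overlapped in MM1S cells. Against untreated cells the log2 fold change was 0.43 (SE 0.43, FDR = 0.667) in MM1R and 0.81 (SE 0.41, FDR = 0.3) in MM1S, and neither passed. Without the MM1S RSL3 library of passage 16 the MM1S value was -0.17. The gap between the lines was -3.35 (SE 0.45, FDR = 0.000196) with RSL3, where 4.89% of all genes passed. Without that library the gap was -2.35, and all 18 fits with 1 library left out passed (-3.67 to -2.35).

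With Fer-1 and RSL3, NR3C1 was at 16.9 and 15.3 CPM in MM1R libraries, below the 163, 93.1 and 93.4 CPM of MM1S libraries. The MM1R library of passage 6, set apart, was at 50.2 CPM, which is 34.1% of the way from the MM1R to the MM1S mean. The gap between the lines was -2.85 (SE 0.52, FDR = 0.00369), against 3.23% of all genes. It missed the threshold without the MM1R library of passage 4 (-2.93, FDR = 0.0578) or of passage 7 (-2.76, FDR = 0.0623), each of which leaves 1 MM1R library that is assumed to vary like the other groups.

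NR3C2 (chromosome 4, 148999913 to 149365850) binds the same hormones as NR3C1 and was the lower of the pair of receptors. In untreated cells it was at 7.38, 6.48 and 4.63 CPM in MM1R and at 8.55, 13.4 and 12 CPM in MM1S. The lines did not overlap, with a log2 fold change of -0.87 (SE 0.22, FDR = 0.0202) that lay under the fold threshold. It passed without the untreated library of MM1R passage 4 (-1.02, FDR = 0.0201) or of MM1S passage 16 (-1.04, FDR = 0.00879). With RSL3 NR3C2 was at 9.19, 7.26 and 6.21 CPM in MM1R and at 11.4, 10.5 and 9.39 CPM in MM1S, and with Fer-1 and RSL3 at 8.54 and 5.74 CPM and at 8.56, 10 and 10.8 CPM. The lines nearly touched within each treatment, at 9.19 against 9.39 CPM with RSL3 and 8.54 against 8.56 CPM with Fer-1 and RSL3. Their log2 fold changes of -0.46 (FDR = 0.227) and -0.45 (FDR = 0.395) did not pass. How many of all genes fail to overlap was not counted. No treatment passed the test in either line.

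**Figure D1:**
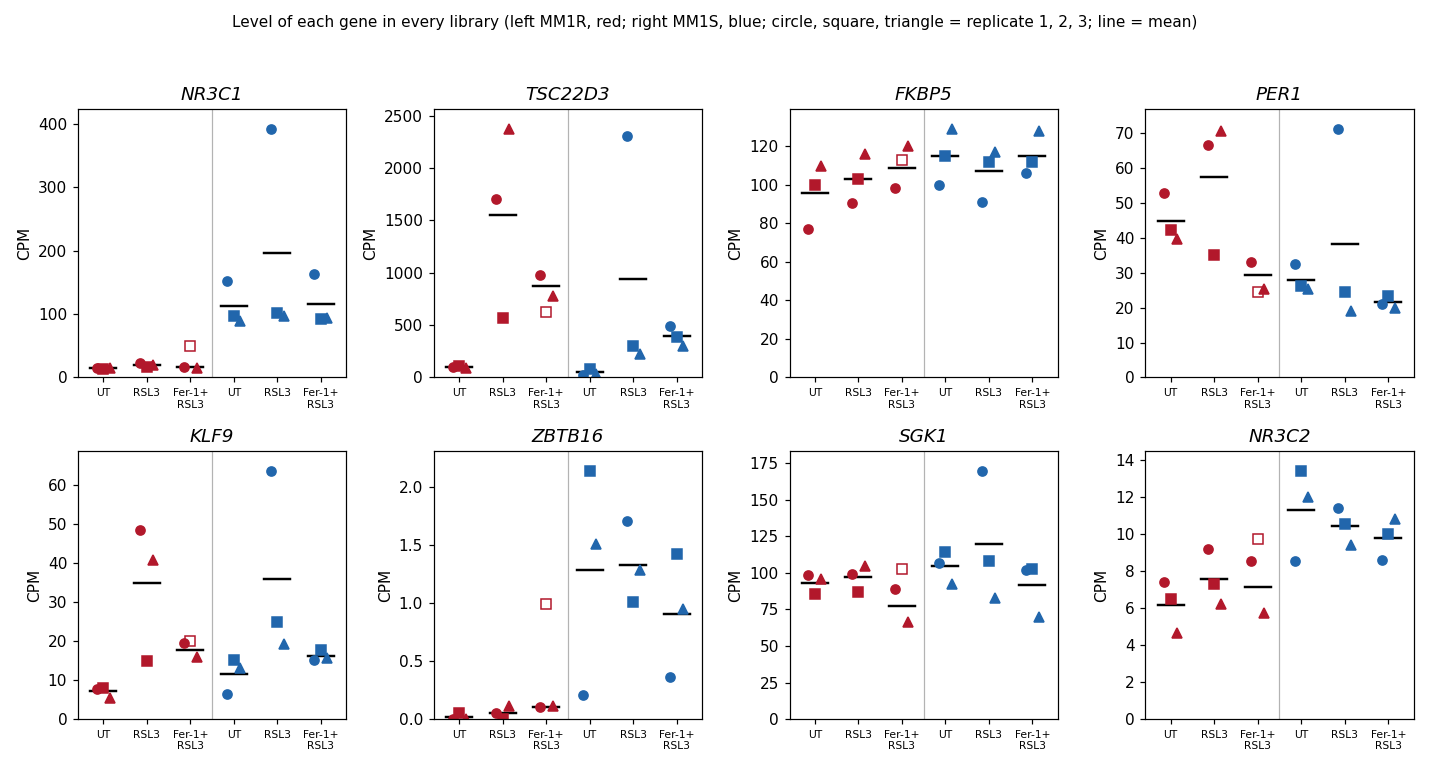
CPM of the 8 genes in every library, on linear axes from 0. Red points are MM1R and blue points MM1S libraries. Circles, squares and triangles are the passages in order, black lines are group means, and the open square is the MM1R library set apart. NR3C1 lay between 13.8 and 22.3 CPM in the other MM1R libraries, against 89.9 to 392 CPM in MM1S libraries, and TSC22D3 lay above the untreated libraries of its line in every treated library.

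TSC22D3 and KLF9 were the members that RSL3 raised. Of the 8 genes, 2 passed in MM1R cells, where 1.12% of all tested genes passed, and 1 passed in MM1S cells, where 1.44% did. Without ZBTB16, which was near 0 in MM1R cells, the median log2 fold change of the 7 other members was 0.35 in MM1R and 0.45 in MM1S, beside a median of 0.00 over all genes in each. Without the MM1S RSL3 library of passage 16 the MM1S median was -0.13, and 2 of the 7 lay above 0 in place of 5.

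TSC22D3 (ENSG00000157514, chromosome X, 106956451 to 107020572) was at 98.3, 106 and 86 CPM in untreated and at 1707, 565 and 2371 CPM in RSL3-treated MM1R cells. MM1S libraries were at 26.9, 85.7 and 38 CPM untreated and at 2301, 305 and 228 CPM with RSL3. Every RSL3 library exceeded every untreated library of its line, by 1.83 to 6.42 on the log2 scale within a passage. The rise was 16-fold in MM1R (log2 4.0, SE 0.77, FDR = 0.0134) and 18.8-fold in MM1S (log2 4.23, SE 0.78, FDR = 0.0114). Ordered by log2 fold change among the 14281 genes, TSC22D3 was number 27 in MM1R and number 26 in MM1S.

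Its size in MM1S cells rested on 1 passage. Without the MM1S RSL3 library of passage 16 the log2 fold change was 2.41 (SE 0.47, FDR = 0.0211). In MM1R cells the FDR rose to 0.0501 without the RSL3 library of passage 4, and to 0.0699, 0.0629 and 0.0647 without the untreated library of passage 4, 6 or 7, at log2 fold changes of 3.92 to 4.07. In MM1S cells it rose to 0.0674 and 0.0602 without the untreated library of passage 16 or 23, at 3.93 and 4.08.

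KLF9 (ENSG00000119138, chromosome 9, 72999520 to 73029573) was at 7.79, 8.06 and 5.39 CPM in untreated and at 48.5, 14.9 and 40.9 CPM in RSL3-treated MM1R cells. The MM1S libraries were at 6.32, 15.2 and 13.1 CPM untreated and at 63.7, 25 and 19.3 CPM with RSL3. The groups did not overlap in either line. In MM1R cells KLF9 rose 4.9-fold (log2 2.29, SE 0.46, FDR = 0.0163). In MM1S cells the log2 fold change was 1.64 (SE 0.45, FDR = 0.0566), which missed the threshold, and it passed with the passage as a replicate block (1.54, FDR = 0.0494) and in DESeq2 (1.63, FDR = 0.023). Without the MM1S RSL3 library of passage 16 it was 0.94 (FDR = 0.314), and without that of passage 22 or 23 it passed (1.84, FDR = 0.0491, and 1.94, FDR = 0.0217), as it did without the MM1R RSL3 library of passage 6 (FDR = 0.0346). The MM1R call was lost without the RSL3 library of passage 4 (1.98, FDR = 0.0822) or 7 (2.17, FDR = 0.0536) and without any untreated MM1R library (FDR of 0.0627 to 0.0731).

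Whether the response to RSL3 differed between the lines was tested as the interaction of line and RSL3. None of the 8 members passed, where 0% of the 14281 genes did (0 genes in edgeR and in DESeq2, 214 at an unadjusted p under 0.05 in edgeR). The interaction was -0.23 (SE 0.97) for TSC22D3 and 0.66 (SE 0.63) for KLF9 on the log2 scale, and 1.59 and 1.36 without the MM1S RSL3 library of passage 16 (FDR = 0.998 for both). With an SE of this size, a difference between the lines in TSC22D3 was not detectable unless it was large.

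The passages differed in how far TSC22D3 and KLF9 were from untreated cells. In MM1S cells the log2 ratio of RSL3 over untreated was 6.42 for TSC22D3 and 3.33 for KLF9 at passage 16, against 1.83 and 0.72 at passage 22. At passage 23 it was 2.58 for TSC22D3 and 0.56 for KLF9, so the order of the last 2 passages differed between the genes. In MM1R cells it was 2.41 for TSC22D3 and 0.89 for KLF9 at passage 6, below 4.78 and 2.92 at passage 7. HMOX1, a gene outside the set, had its highest ratio in MM1S cells at passage 16 (7.76) and its lowest in MM1R cells at passage 6 (3.77). The part of the passage in these results was not tested. Over the 17 libraries, the Pearson r of TSC22D3 and KLF9 on log2 CPM was 0.83, as a description of libraries that share treatments.

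**Figure D2:**
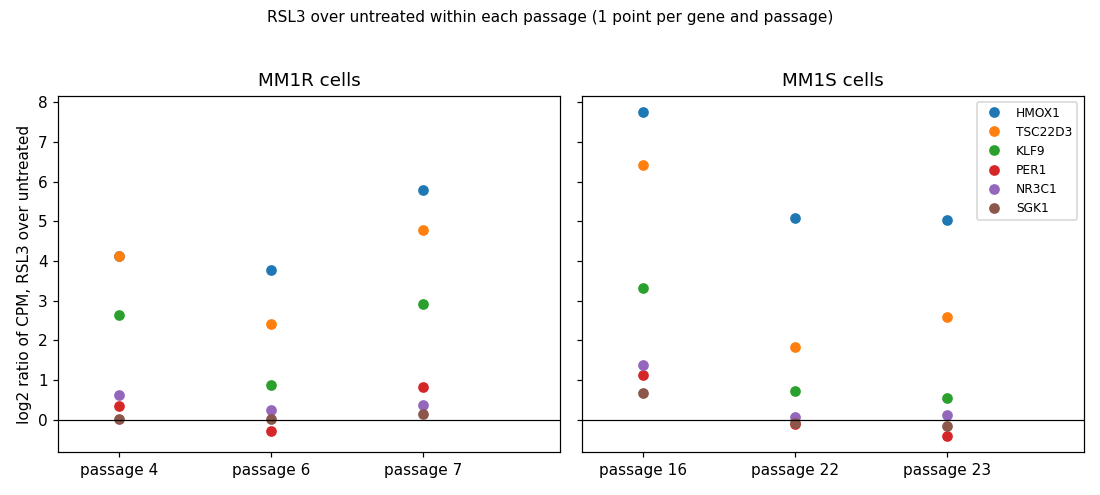
Log2 ratio of CPM with RSL3 over untreated within each passage, for TSC22D3, KLF9, PER1, NR3C1, SGK1 and HMOX1, in MM1R cells (left) and MM1S cells (right). TSC22D3 and KLF9 were above 0 in all 6 passages, and in MM1S cells each gene shown had its highest ratio at passage 16. FKBP5, not drawn, had its highest at passage 22 (-0.03).

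PER1 (chromosome 17, 8043790 to 8059824) did not pass in either line with RSL3. Its level was 52.8, 42.4 and 39.7 CPM in untreated and 66.6, 35 and 70.6 CPM in RSL3-treated MM1R cells. The MM1S libraries held 32.4, 26.2 and 25.3 CPM untreated and 71.2, 24.5 and 19.1 CPM with RSL3. The groups overlapped in both lines, with log2 fold changes of 0.35 (SE 0.37, FDR = 0.685) and 0.45 (SE 0.37, FDR = 0.559). As with TSC22D3, the MM1S library of passage 16 was the one that stood high, and without it the MM1S value was -0.36.

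FKBP5 (chromosome 6, 35541362 to 35696360), among the most widely used readouts of receptor activity, was nearly flat. It was at 77.2, 99.9 and 110 CPM in untreated and at 90.8, 103 and 116 CPM in RSL3-treated MM1R cells. MM1S cells had it at 100, 115 and 129 CPM untreated and at 91.2, 112 and 117 CPM with RSL3. The groups overlapped, and the log2 fold changes were 0.11 (SE 0.15) and -0.10 (SE 0.15). FKBP5 was also nearly alike in the lines although NR3C1 was not, with a log2 fold change of -0.26 (SE 0.15, FDR = 0.316) in untreated MM1R over MM1S cells.

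SGK1 (chromosome 6, 134490386 to 134639250) was at 98.3, 85.4 and 95.9 CPM in untreated and at 99.5, 86.8 and 105 CPM in RSL3-treated MM1R cells. MM1S libraries held it at 107, 114 and 92.6 CPM untreated and at 170, 108 and 83.1 CPM with RSL3. The groups overlapped in both lines, and the passage 16 library was again the highest. The log2 fold changes were 0.06 (SE 0.21) and 0.20 (SE 0.21), the latter -0.13 without that library, and SGK1 did not pass in any comparison between the lines (-0.31 to -0.17).

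ZBTB16 (chromosome 11, 113929763 to 114127487) was close to absent from MM1R cells. The 3 untreated MM1R libraries held 1 read of it in all, against 75 in the 3 untreated MM1S libraries, a ratio of MM1S over MM1R of 70.5 with a counting interval of 12.3 to 2821 (exact, 95%). With RSL3 the reads were 3 against 69, a ratio of 23.8 (7.82 to 118). These intervals cover counting error only. With Fer-1 and RSL3 the reads were 4 in 2 libraries against 51 in 3. ZBTB16 passed the filter on low counts only through the MM1S libraries, where it is high, so its calls between the lines are counted below but carry no weight as a test.

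Within MM1S cells ZBTB16 was low and spread from 0.207 to 2.14 CPM. It was at 0.207, 2.14 and 1.51 CPM untreated, 1.71, 1.01 and 1.28 CPM with RSL3, and 0.363, 1.42 and 0.944 CPM with Fer-1 and RSL3. The groups overlapped, with a log2 fold change of 0.05 (SE 0.61) for RSL3 against untreated cells. By passage, the log2 ratio was 3.04 at passage 16, -1.08 at passage 22 and -0.23 at passage 23. The MM1R library set apart held 19 reads of it (0.988 CPM), in the range of MM1S cells.

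**Figure D3:**
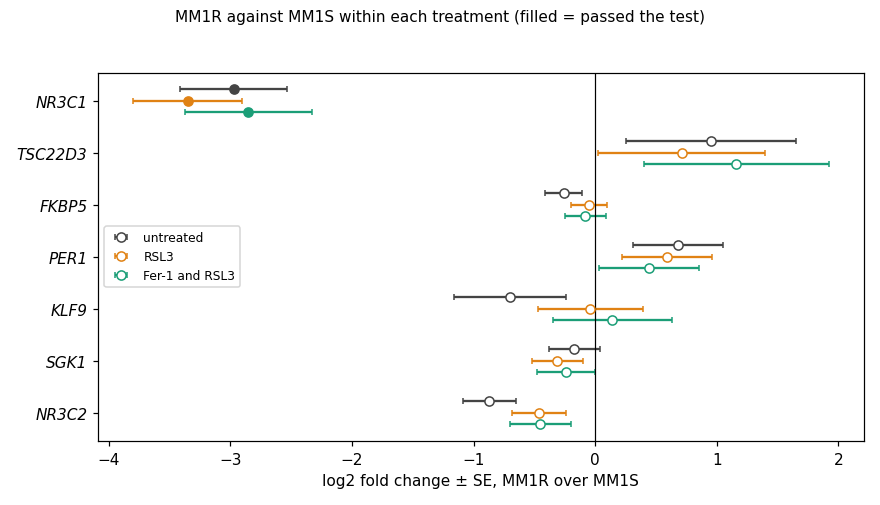
Log2 fold change of MM1R over MM1S cells within each treatment, with SE bars, for the 7 genes other than ZBTB16. Filled points passed the test. NR3C1 was at -2.97, -3.35 and -2.85 and filled in all 3 treatments, while every other gene shown was within 1.16 log2 units of 0 and open.

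Between the lines, TSC22D3, PER1 and KLF9 did not pass. In untreated cells, TSC22D3 was higher in all 3 MM1R than in all 3 MM1S libraries (log2 0.95, SE 0.70, FDR = 0.448), and so was PER1 (0.68, SE 0.37, FDR = 0.278). For TSC22D3 this was by a hair, at 86 CPM in the lowest MM1R library and 85.7 CPM in the highest MM1S library. KLF9 overlapped between the lines (-0.70, SE 0.46). With RSL3, TSC22D3 was at 0.71 (FDR = 0.587) and PER1 at 0.59 (FDR = 0.366), and without the MM1S RSL3 library of passage 16 both passed, at 2.55 (FDR = 0.00498) and 1.41 (FDR = 0.00201). In all, 2 of the 8 genes passed between untreated lines, 2 between RSL3-treated lines and 1 between lines given Fer-1 and RSL3, all lower in MM1R cells, against 4.78%, 4.89% and 3.23% of all genes. These were NR3C1 in each, and ZBTB16 between untreated and between RSL3-treated lines.

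Pre-treatment with Fer-1 lowered no member past the test. Against RSL3 alone, 0 of 14281 genes passed in edgeR in either line (percentage called 0 in both), with 505 in MM1R and 807 in MM1S at an unadjusted p under 0.05, and DESeq2 called 6 and 5 genes. In MM1R cells TSC22D3 was at 977 and 779 CPM with Fer-1 and RSL3, inside the range of 565 to 2371 CPM with RSL3, a log2 fold change of -0.82 (SE 0.78, FDR = 1). The 565 CPM are of passage 6, whose Fer-1 partner was set apart and stood slightly higher (log2 ratio 0.15). Within both MM1R passages used, TSC22D3 was lower with Fer-1, at -0.80 (passage 4) and -1.61 (passage 7). In MM1S cells it was at 496, 384 and 296 CPM, against 228 to 2301 CPM, a log2 fold change of -1.27 (SE 0.70, FDR = 0.892) that turned to 0.56 without the RSL3 library of passage 16. Within passages it was lower with Fer-1 at passage 16 alone in MM1S cells (-2.21) and higher at the other passages (up to 0.38).

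KLF9 did not pass, although it was lower with Fer-1 than with RSL3 alone in all 3 MM1S passages and in both MM1R passages used. It was at 19.6 and 16 CPM in MM1R cells given Fer-1 and RSL3, against 48.5 and 40.9 CPM with RSL3 at the same passages, while the library set apart (20 CPM) was above its RSL3 partner (14.9 CPM). MM1S libraries were at 15.2, 17.6 and 15.7 CPM, below all 3 RSL3 libraries. The log2 fold changes were -0.97 (SE 0.50, FDR = 1) and -1.15 (SE 0.44, FDR = 0.834). In MM1S cells the log2 ratio was -2.07 at passage 16, against -0.51 at passage 22 and -0.30 at passage 23. With 1 library left out, the MM1S log2 fold change ran from -1.45 to -0.45.

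PER1 stood at 33.1 and 25.4 CPM in MM1R and 21.2, 23.5 and 19.9 CPM in MM1S cells given Fer-1 and RSL3. In MM1R cells these lay below all 3 RSL3 libraries and all 3 untreated libraries, and in MM1S cells below all 3 untreated libraries. The log2 fold changes against RSL3 were -0.97 (SE 0.42, FDR = 1) and -0.83 (SE 0.37, FDR = 0.872), and the latter was -0.02 without the MM1S RSL3 library of passage 16. SGK1 (-0.32 and -0.39), FKBP5 (0.08 and 0.11) and NR3C2 (-0.08 and -0.09) were closer to 0, and NR3C1 was at -0.27 in MM1R and -0.76 in MM1S cells. The NR3C1 value turned to 0.51 in MM1R cells with the library that was set apart put back in its group, and to 0.22 in MM1S cells without the RSL3 library of passage 16.

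Against untreated cells, TSC22D3 remained raised under Fer-1. It rose 9.07-fold in MM1R cells (log2 3.18, SE 0.78, FDR = 0.0297) and 7.81-fold in MM1S cells (log2 2.97, SE 0.74, FDR = 0.033), as the 1 of 8 members that passed in each line, where 1.50% and 1.30% of all genes passed. This comparison shares its untreated libraries with that of RSL3. KLF9 was at 1.32 (SE 0.50, FDR = 0.148) and 0.48 (SE 0.45, FDR = 0.64). The TSC22D3 call was lost in MM1R cells without either Fer-1 library (FDR = 0.141 and 0.0923) or any untreated library (FDR of 0.0909 to 0.0961), and in MM1S cells without any Fer-1 library (FDR of 0.0501 to 0.0939) or the untreated library of passage 16 (0.133) or 23 (0.128). The log2 fold change was between 2.66 and 3.35 in all of these fits.

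**Figure D4:**
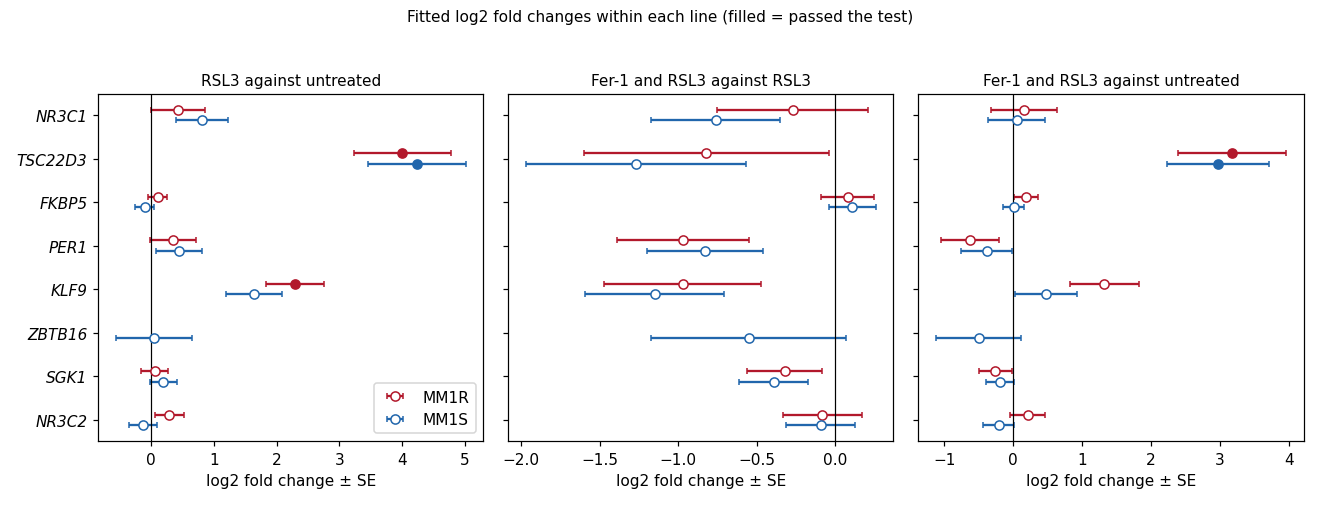
Fitted log2 fold changes with SE bars in MM1R (red) and MM1S cells (blue) for RSL3 against untreated (left), Fer-1 and RSL3 against RSL3 (middle) and Fer-1 and RSL3 against untreated cells (right). Filled points passed the test. TSC22D3 was filled at 4.0 and 4.23 on the left and at 3.18 and 2.97 on the right, KLF9 was filled in MM1R cells on the left, and no point was filled in the middle. ZBTB16 is not drawn for MM1R cells, where it was near 0.

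Compared per length, as CPM per kb of the main transcript, TSC22D3 was first among the members in untreated MM1R cells at 42.6. SGK1 (28.7) and FKBP5 (25.5) followed and overlapped each other, then came PER1 (9.61), NR3C1 (2.12), KLF9 (1.36), NR3C2 (1.06) and ZBTB16. In untreated MM1S cells SGK1 (32.2), FKBP5 (30.6), TSC22D3 (22.1) and NR3C1 (16.6) followed in order, each overlapping the next, above PER1 (5.99). Over the length of all annotated exons, NR3C1 came first of these 4 (12.3) and the 4 still overlapped, so their order depends on the length used. With RSL3, TSC22D3 was at 682 in MM1R and 416 in MM1S cells and all of its libraries stood above those of every other member.

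On a list of 31 other genes that glucocorticoids raise, most of those tested were higher with RSL3. The list was drawn up with earlier results of these data known. Its counts and medians therefore describe the listed genes only, and not glucocorticoid targets at large. Of the 31 genes, 22 were tested, and 20 lay above 0 in MM1R and 19 in MM1S cells. Of these tested genes, 7 rose and 1 fell past the test in each line, where 1.12% (MM1R) and 1.44% (MM1S) of all genes passed in either direction. The median log2 fold change was 1.55 in MM1R and 1.27 in MM1S cells, beside 0.00 over all genes. The MM1S counts and median include the RSL3 library of the earliest MM1S passage, which stood apart, and are not given without it. CEBPB, a transcription factor of stress and inflammation, rose by log2 1.72 (FDR = 0.00793) in MM1R and 1.71 (FDR = 0.00672) in MM1S cells. The metallothionein gene MT1X, which codes for a metal-binding protein, rose by 7.83 (FDR = 0.0167) and 8.25 (FDR = 0.015), from 1.93 ± 1.12 to 438 ± 473 CPM and from 1.83 ± 0.271 to 559 ± 881 CPM. MT2A rose by 7.92 (FDR = 0.019) and 8.17 (FDR = 0.0181), and DDIT4, a stress-induced inhibitor of mTOR, by 2.60 (FDR = 0.0196) and 2.87 (FDR = 0.015). TNFAIP3, an inhibitor of NF-κB, was the gene that fell (-1.22, FDR = 0.00806, and -1.03, FDR = 0.017). Several of these genes are known to answer other stresses as well as hormone.

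In cells given Fer-1 and RSL3, 3 of the 22 genes passed as higher than in untreated MM1R cells and 4 in MM1S cells, and none as lower. Of all genes, 1.50% and 1.30% passed in either direction. CEBPB (1.82 in both lines), DDIT4 (2.85 and 2.93) and TXNIP, a regulator of thioredoxin, (1.41 and 1.21) rose in each, and BCL6 rose in MM1S cells (2.12, FDR = 0.0435). Against RSL3 alone none passed, and MT2A had the smallest p in each line, at -5.65 (FDR = 1) and -6.39 (FDR = 0.834). Between the lines none of the 22 passed, with medians of -0.24, -0.01 and -0.06 in untreated, RSL3-treated and Fer-1-treated cells. PIK3R1 (-0.66, FDR = 0.0106) and GLUL (-0.69, FDR = 0.012) had the smallest p in untreated cells and lay under the fold threshold.

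Genes that glucocorticoids repress were mostly off. Only 2 of 10 were tested, ICAM1 and PTGS2. ICAM1, an adhesion molecule, was higher in MM1R than in MM1S cells in each treatment, at 61.1 ± 9.01 against 9.57 ± 9.26 CPM untreated (log2 2.68, FDR = 0.0155), 3.49 (FDR = 0.00462) with RSL3 and 3.24 (FDR = 0.0146) with Fer-1 and RSL3. PTGS2, which codes for cyclooxygenase-2, was at 5.20 (FDR = 0.0528) for RSL3 in MM1S cells, where 1 library, of passage 16, held 763 reads and the other two 26 and 12.

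Some of the receptor's chaperones rose with RSL3. Of 17 tested chaperones and co-chaperones, 2 rose past the test in MM1R and 5 in MM1S cells and none fell past it. Of all genes, 1.12% and 1.44% passed in either direction. The median log2 fold changes were 0.23 and 0.50 beside 0.00 over all genes. DNAJB1, an HSP40 co-chaperone, rose by log2 3.53 (FDR = 0.0202) and 4.25 (FDR = 0.0107), and HSPA8 by 1.27 (FDR = 0.0305) and 1.48 (FDR = 0.0156). In MM1S cells HSP90AA1, the inducible HSP90, rose by 2.63 (FDR = 0.0277) and CHORDC1 by 1.95 (FDR = 0.0235). HSP90AA1 did not pass in MM1R cells, at 625 ± 144 CPM untreated and 2407 ± 1761 CPM with RSL3. The MM1S RSL3 library of passage 16 stood far above those of passages 22 and 23. It held 152598 reads of HSP90AA1 against 32537 and 33364, and 120802 of DNAJB1 against 17416 and 20011. The MM1S chaperone values are not given without it. With Fer-1 and RSL3 against untreated cells 3 rose in MM1R and 5 in MM1S cells, where 1.50% and 1.30% of all genes passed. Among them was DNAJB1 at 3.68 (FDR = 0.0155) and 4.14 (FDR = 0.00625). None passed between the lines, where PPID had the smallest p in each treatment (-0.25, -0.52 and -0.39).

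None of 13 coregulators passed in any comparison. NCOA2, a coactivator, was at 0.73 (FDR = 0.0368) for RSL3 in MM1R cells, under the fold threshold, and NRIP1, a corepressor, at 0.83 (FDR = 0.0165) and 0.66 (FDR = 0.0298) for Fer-1 and RSL3 against untreated MM1R and MM1S cells. MED14 was at 0.63 (FDR = 0.00043) in RSL3-treated MM1R over MM1S cells.

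Of 7 tested genes of steroid supply and receptor import, H6PD and HSD11B1 were called higher in untreated MM1R than MM1S cells. Of all genes, 4.78% were called in either direction. The HSD11B1 call carries no weight as a test, for the reason given below. H6PD, which makes the cofactor for cortisol regeneration, was at 25.6 ± 2.18 CPM in untreated MM1R and at 6.96 ± 6.05 CPM in MM1S cells (log2 1.88, FDR = 0.0209), and passed at 2.14 with RSL3 and 2.02 with Fer-1 and RSL3. HSD11B1, the enzyme that regenerates cortisol, held 11, 22 and 7 reads in untreated MM1R and 1, 0 and 0 in untreated MM1S libraries. It passed the filter on low counts only through the MM1R libraries, so these reads are given as a description. IPO13, an importin for the receptor, was at -0.53 (FDR = 0.0272) for RSL3 in MM1R cells, under the fold threshold.

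Among 11 tested relatives of the members, KLF13, of the same family as KLF9, was lower after treatment. Its level was 80.4 to 88 CPM in untreated, 47.3 to 57.7 CPM in RSL3-treated and 33.7 to 35.7 CPM in MM1R cells given Fer-1 and RSL3, and 68.3 to 71, 38.6 to 43.2 and 22.4 to 29.6 CPM in MM1S cells. The 3 treatments did not overlap in either line. With RSL3 it was at -0.68 (FDR = 0.00664) and -0.75 (FDR = 0.00344), under the fold threshold, and with Fer-1 and RSL3 it fell by 1.28 (FDR = 0.000147) and 1.42 (FDR = 1.63e-05) on the log2 scale. TSC22D4, a relative of TSC22D3, was at -0.49 (FDR = 0.0152) in MM1R cells, and PER2 at -0.95 (FDR = 0.0199) in untreated MM1R over MM1S cells.

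The genes whose log2 CPM followed each member most closely over the 17 libraries other than the one set apart were found among all tested genes. For NR3C1 they were GPC4 (r = 0.978), NLRP5 (0.970) and CTHRC1 (0.970), and for ZBTB16 TRMT11 (0.954), SLC50A1 (0.944) and SHTN1 (0.943). For TSC22D3 they were HERPUD1 (0.960), LOC105374382 (0.953) and CTH (0.950), and for KLF9 EIF2AK3 (0.961), CYTIP (0.960) and GALNT3 (0.944). These 2 members differ in their closest genes. HERPUD1 is a gene of endoplasmic reticulum stress and EIF2AK3 codes for PERK, a sensor of that stress. For PER1 they were MEF2D (0.966), DUSP4 (0.954) and CCL3L1 (0.951), and for SGK1 NFKB2 (0.923), FMNL1 (0.886) and VASP (0.881). For FKBP5 they included CHEK1 (0.939) and CNOT10 (0.933), and for NR3C2 DSP (0.958), TLE4 (0.929) and CAST (0.925). These r values describe libraries that share lines, treatments and passages, and carry no test.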

How the data were processed

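RNA of 18 libraries was sequenced by the authors on a BGISEQ-500 in read pairs, checked with FastQC 0.11.5 and aligned with STAR 2.7.3a to hg19. The authors deposited raw counts for 43735 genes, which were used here, and a normalized signal for 29553 genes, the counts scaled by size factors of 0.834 to 1.08. The latter served as a check of the columns only. The counting tool, annotation and use of strand are not given in the sources used here, so genes that overlap or share reads are uncertain.

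Columns were matched to samples by label. filterByExpr (minimum count 10) kept 14281 genes with 99.9% of the counts. Groups were compared with edgeR 4.0.16 (R 4.3.3, limma 3.58.1), TMM scaling (0.864 to 1.06) and its quasi-likelihood test, with p-values adjusted by Benjamini-Hochberg. The model had 6 group means plus a mean for the MM1R Fer-1 and RSL3 library of passage 6 (11 residual degrees of freedom). Standard errors are the log2 fold change over the root of its F statistic. The method was tested on simulated counts, drawn independently for each library with the same spread for every gene. The simulation had no passage effect, outlying library or mixed library, so it does not cover these features of the data. Log2 CPM used a prior count of 2. A group was taken to be at the floor with at most 3 counts in every library. Replicate libraries differed by 7.59 to 155 times the sampling noise (chi-square per degree of freedom). Alternatives were RLE scaling, DESeq2 1.42.0, no filter, other samples or thresholds, leaving out each library, and the passage as a block. The labels give the passage, which pairs the libraries within a line. Deviations of same-passage libraries from their group means correlated at 0.0924 to 0.568 in MM1R cells (7 pairs) and 0.216 to 0.681 in MM1S cells (9 pairs). Positions and sequence came from GENCODE release 44 on GRCh37.

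The members and gene lists were chosen with earlier results of these data known. Named genes are the members, HMOX1, from each list the called genes (up to 4 per comparison by FDR, otherwise the 2 of smallest p, given here in part), and the 3 tested genes most like each member. A few genes these rules select are not reported here.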

Additional observations from a re-analysis of the deposited data

Results flagged for a closer look

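FKBP5 with RSL3 was higher in 3 of 3 passages of MM1R cells (log2 fold change 0.11, SE 0.15) and lower in 3 of 3 passages of MM1S cells (-0.10, SE 0.15). Neither value passed the test in edgeR, and the difference itself, tested as the interaction of line and RSL3, was 0.21 (SE 0.21, FDR = 1).

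The library labelled MM1R given Fer-1 and RSL3 at passage 6 held RNA of genes that mark MM1S cells. Over 17 such genes, with the members and their lists left out, it stood at 46.1% of their MM1S level (median, quartiles 42.2 and 56.4%). Over 26 genes that mark MM1R cells it reached 44.4% of the MM1R level. Among the members it was at 50.2 CPM of NR3C1, 0.988 CPM of ZBTB16 and 9.73 CPM of NR3C2, each above the other libraries of its group, and at 625 CPM of TSC22D3, below both.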

How the results depend on the processing

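For RSL3 against untreated MM1S cells the number of members that passed went from 1 to 2 with no filter on low counts, the replicate block of passages, the passage 6 library kept in its labelled group or DESeq2, and to 0 with only the groups compared (TSC22D3 at 4.23, FDR = 0.199). With no filter it went from 0 to 2 for Fer-1 and RSL3 against RSL3 in MM1S cells (TSC22D3 at -1.23 and KLF9 at -1.12), from 1 to 2 for Fer-1 and RSL3 against untreated MM1R cells, and from 1 to 3 between the lines given Fer-1 and RSL3. With only the groups compared it was 2 for Fer-1 and RSL3 against untreated MM1R cells (KLF9 at 1.33, FDR = 0.00872), 1 between the untreated lines, where ZBTB16 was left out by the filter and not tested, and 2 between the lines given Fer-1 and RSL3 (TSC22D3 at 1.19). The cause of the other changes was not tested. With 1 library left out, the number of members that passed was 0 to 2 for RSL3 in MM1R and in MM1S cells, 0 to 2 and 0 to 1 for Fer-1 and RSL3 against untreated MM1R and MM1S cells, 2 to 4 between lines given RSL3 and 0 to 2 between lines given Fer-1 and RSL3. The passage block changed no other call of a member, and the lines could not be compared under it, since each passage lies in 1 line. Of 1892 refitted member values 1805 stayed on the same side of the threshold in the same direction, 24 lost and 21 gained the call, 42 changed sign while uncalled, and 0 reversed. Many of these refits dropped a library outside the groups compared, so the share that stayed does not measure how stable the calls are. The number of all genes called for RSL3 was 390 and 387 with the passage block, against 160 and 206 in MM1R and MM1S cells, and 3 with only the MM1S groups compared. It was 389 and 386 against 214 and 186 for Fer-1 and RSL3 against untreated cells, and 4 and 4 against 0 for Fer-1 and RSL3 against RSL3. Leaving out 1 library gave 38 to 338 and 39 to 443 genes for RSL3. ZBTB16 had too few MM1R reads for a fold change within that line.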
